A study of Mus musculus with 25 samples.

Results

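Tumour-only regions are stretches of open chromatin that were called as peaks in the tumour-initiating stem cells of a mouse squamous cell carcinoma (SCC) and in no other population of the study. The 4 deposited peak lists of ATAC-seq, an assay in which a transposase cuts accessible DNA, were restricted to the autosomes and chromosome X and merged wherever peaks shared 1 bp or more. Of the 98107 merged regions, 15423 held a peak of the tumour list and none of the others. They were 28.5% of the 54181 tumour peaks (95% Wilson interval 28.1% to 28.8%) and 15.7% of all merged regions. The regions were chosen by the presence and absence of called peaks, so their heights in the tumour sample are given as a description and without a test. A region missing from a list was not called there, and its signal in that population could not be read from a peak list.

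In skin, hair follicle stem cells (HFSC) of the bulge and epidermal stem cells (EpdSC) between the follicles normally keep separate fates, and both can repair wounds. Enhancers, which lie mostly far from gene starts, carry much of the identity of a cell, and transcription factors such as those of the AP-1 family, which bind the palindromic sequence TGANTCA, help to open them when growth factor and RAS signalling is active. SCC can arise from skin stem cells when HRas is oncogenic, and its invading cells are known for genes of proteases and cytokines.

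The ATAC-seq populations were HFSC (A6Hi CD34Pos Sca1Neg) and EpdSC (A6Hi CD34Neg Sca1Pos) of back skin at postnatal day 50, wound cells (A6Pos Sca1Pos) from full and partial thickness wounds, and A6Hi B1Hi GFPpos cells of grafted SCC induced by oncogenic HRas, all of a mixed CD1/B6 strain and labelled female. A6 and B1 are integrin alpha 6 and beta 1. Coordinates are those of mm10. Samples were pooled for peak calling, so each population had 1 list and no replicate. RNA was counted in 21 libraries of the B6 strain, also labelled female. The set titled DS held the Tbr HFSC and Tbr EpdSC at postnatal day 60 and 6 libraries of GFP positive cells from grafted tumours, 1 each of high and low integrin alpha 6 for the genotypes HRas, HRas TbrKO and TbrKO. The labels do not spell out Tbr. The set CL held, at day 60, 2 libraries each of HFSC, EpdSC, the wounded HFSC lineage (YFP positive cells marked by Sox9CreER;R26-YFP) and wounded EpdSC (YFP negative), so that the sort differed along with the wound. A further set, BK, held, also at day 60, 2 HFSC, 2 EpdSC and 1 wounded EpdSC library. Per library, 14216472 to 36425082 reads were counted.

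Before the results, 2 facts about the libraries bear on them. RNA of the Y-linked genes Ddx3y, Eif2s3y, Kdm5d and Uty summed to between 61.5 and 341 counts per 1000000 counted reads (CPM) in the 8 DS libraries, which goes against their female label. It summed to at most 0.385 CPM in the CL libraries, and the tumour peak list held 17 peaks on chromosome Y. In the HRas-bearing tumours of high integrin alpha 6, 6 of 6 fibroblast markers, 5 of 6 leukocyte markers and 5 of 5 endothelial markers were called higher than in stem cells. So were 3 of 4 muscle markers and 0 of 4 melanocyte markers. The basal keratin Krt5 stood at 14215 and 15005 CPM in those tumours, so the labelled cell type was present. In the tumour peak list, 3 of 5 keratinocyte markers had a peak at their start, against 1 of 6 fibroblast, 0 of 6 leukocyte and 0 of 5 endothelial markers. In the HFSC list the counts were 4, 2, 0 and 1, although stem cell RNA of the fibroblast and endothelial markers was low. A peak at a start is thus no measure of how many cells of a type were present. More cells of a type and more RNA per cell cannot be told apart in these bulk samples.

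Sequences are shown for gene starts that a tumour-only region overlapped, because the motif could be searched there and the RNA of the gene read beside it. Windows of 300 bases, 250 before to 50 after the start, were taken from RefSeq (GRCm38.p6, the assembly of mm10). Of 17274 such windows, 104 held the summit of a tumour-only region. Below are the upstream stretches that lay within the region, 5′ to 3′ on the strand of the gene, with the match to the AP-1 motif TGANTCA in capitals. Krt13, a keratin of moist stratified epithelia, lies on the minus strand (chr11:100120578-100120637). Serpinb7, a serine protease inhibitor of the epidermis, lies on the plus strand (chr1:107422594-107422688), as does Apobr, an apolipoprotein B receptor (chr7:126584758-126584994). Ifi203, an interferon-inducible gene of a family with close copies, lies on the minus strand (chr1:173942673-173942922).
Krt13: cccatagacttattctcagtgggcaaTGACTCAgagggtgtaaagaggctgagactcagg
Serpinb7: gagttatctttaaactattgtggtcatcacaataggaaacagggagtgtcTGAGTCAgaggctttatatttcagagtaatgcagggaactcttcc
Apobr: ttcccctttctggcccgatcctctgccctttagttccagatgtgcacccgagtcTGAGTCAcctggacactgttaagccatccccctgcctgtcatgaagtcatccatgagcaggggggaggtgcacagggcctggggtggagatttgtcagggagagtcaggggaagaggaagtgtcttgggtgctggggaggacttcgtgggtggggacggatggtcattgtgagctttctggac
Ifi203: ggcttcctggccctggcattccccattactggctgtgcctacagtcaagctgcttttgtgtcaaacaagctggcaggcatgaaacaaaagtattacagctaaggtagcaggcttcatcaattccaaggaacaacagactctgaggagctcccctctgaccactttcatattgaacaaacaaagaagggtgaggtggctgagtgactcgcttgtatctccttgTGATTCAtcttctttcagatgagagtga

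For contrast, the stretches of 2 neuronal genes with a tumour-only region at the start but no AP-1 match are shown. Scg2, which encodes a granin of secretory vesicles, lies on the minus strand (chr1:79440027-79440276). Gad2, which encodes an enzyme that makes the transmitter GABA, lies on the plus strand (chr2:22622077-22622326).
Scg2: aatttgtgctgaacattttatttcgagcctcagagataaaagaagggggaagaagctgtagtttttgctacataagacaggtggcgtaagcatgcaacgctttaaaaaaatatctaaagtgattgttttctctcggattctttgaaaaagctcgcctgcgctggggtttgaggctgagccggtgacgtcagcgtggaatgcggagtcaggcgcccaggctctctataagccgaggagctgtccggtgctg
Gad2: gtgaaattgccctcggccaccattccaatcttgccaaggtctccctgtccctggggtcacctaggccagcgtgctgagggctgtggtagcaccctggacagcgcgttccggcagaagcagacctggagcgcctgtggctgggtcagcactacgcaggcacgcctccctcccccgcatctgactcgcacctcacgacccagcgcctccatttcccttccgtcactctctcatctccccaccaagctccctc

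The AP-1 motif TGANTCA, which reads alike on both strands, was found in 32 of the 104 windows with a tumour-only summit (30.8%, 95% Wilson interval 22.7% to 40.2%). It was present in 7.14% of all 17274 windows and in 4.33% of the 4640 windows whose summit lay in a region open in all 4 lists. Windows at regions of the tumour and wound lists alone held it in 23 of 68 cases (33.8%), and windows at wound-only regions in 25 of 107 (23.4%). In the 32 windows the motif nearest the summit lay at a median distance of 32 bp, with a range of 2 to 232 bp, and 21 of 32 lay within 50 bp. The motif therefore stood at a like share in the tumour-only and the tumour and wound windows, and at a higher share than in the starts open in all 4 lists, beyond counting error.

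Base composition moved with the motif. The windows of tumour-only regions had a median GC content of 53.8% and a median of 7 CpG, against 62.3% and 23 in windows open in all 4 lists and 56.3% and 14 in all windows. Among windows with 7 CpG or fewer, AP-1 was found in 27 of 58 tumour-only windows (46.6%) and in 803 of all 6498 (12.4%). Among those with more CpG, it was found in 5 of 46 (10.9%) and in 4.00% of all. The ETS core CAGGAA stood in 36.5% of tumour-only windows, 24.2% of those open in all 4 lists and 28.8% of all windows. The CpG-bearing ETS core CCGGAA went the other way, with 9.62%, 35.9% and 19.3%. The last 2 motifs were searched on both strands, and a match is a description of letters and not of binding. Of the genes tested for RNA in tumours against stem cells, 12 of 27 with AP-1 (44.4%) and 29 of 53 without it (54.7%) were called higher, and 3 in each were called lower, where the shares over all placed genes were 26.9% and 21.8%.

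The regions were low and narrow beside regions open in all populations. Their median width was 308 bp (182 to 1919 bp), against 731 bp for the tumour peaks in regions of all 4 lists. The pileup, the number of fragments over the summit, had a median of 23 (11 to 292) against 50, and the fold enrichment over local background, the peak caller's own value, a median of 4.85 (1.74 to 31.4) against 7.67. Together they covered 5624200 bases. Among all tumour peaks, divided by pileup into 4 parts of similar size, the tumour-only share was 47.7% in the lowest part, then 32.0% and 21.8%, and 11.2% in the highest. At the edge of the rule, 48 tumour-only regions lay 1 to 50 bp from a peak of another list and had a median fold enrichment of 3.25, while 112 tumour peaks shared 1 to 50 bp with another list and had the same median of 3.25.

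Depth differed between the lists, and with it the lowest peak that could be called. The deposited headers give 26825550 fragments for HFSC, 13963471 for EpdSC, 29579794 for tumour and 11140895 for wound. Scaled per 1000000 fragments, 5% of the peaks lay below 0.485 in the HFSC list, 0.716 in the EpdSC list, 0.473 in the tumour list and 0.808 in the wound list. The tumour-only regions had a median of 0.778 per 1000000 fragments. Of them, 85.7% reached the level of the HFSC list, 55.6% that of EpdSC and 48.6% that of wound. A smaller set of 7497 regions thus reached the 5th percentile of every other list. The part of depth in the others was not tested.

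**Figure D1:**
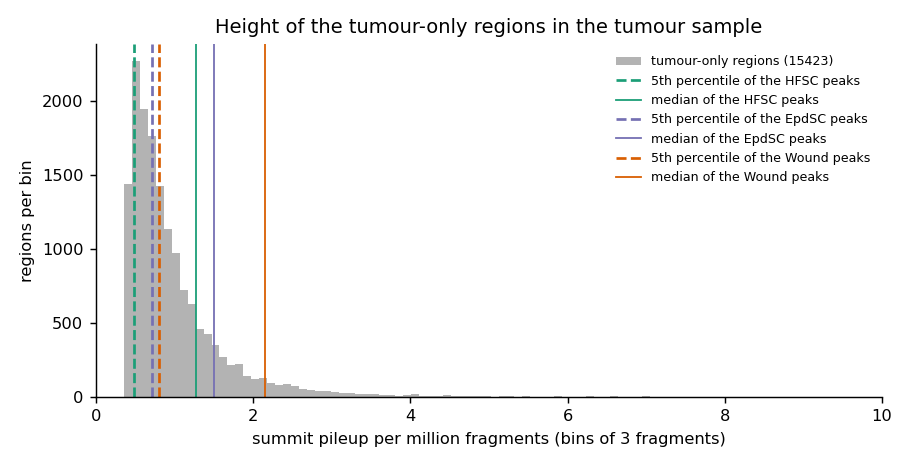
Height of the 15423 tumour-only regions in the tumour sample, as summit pileup per 1000000 fragments (x axis) against regions per bin of 3 fragments (y axis). Dashed lines mark the 5th percentile and solid lines the median of the HFSC (0.485 and 1.27), EpdSC (0.716 and 1.50) and wound (0.808 and 2.15) peaks, and most of the regions lie below the solid lines.

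Most tumour-only regions lay far from gene starts. Only 440 (2.85%, 95% Wilson interval 2.60% to 3.13%) had their summit within 1 kb of the start of a protein-coding gene, 42.9% lay elsewhere inside a gene span, and 54.2% lay outside genes. Regions open in all 4 lists had 50.3% of their summits within 1 kb, so the difference was far beyond counting error. The median distance to the nearest start was 45488 bp in tumour-only regions, 31100 bp in regions of tumour and wound alone, 27434 bp in wound-only and 43509 bp in HFSC-only regions. Beyond 100 kb lay 32.1% of tumour-only, 20.1% of tumour and wound, 18.4% of wound-only and 29.0% of HFSC-only regions. The nearest region of another kind lay at a median of 8651 bp from a tumour-only region (quartiles 2839 and 29986 bp), against 6431 bp for wound-only regions. One lay within 500 bp of 4.45% and within 10 kb of 53.3% of tumour-only regions, against 6.59% and 64.9% of wound-only regions. None lay within 50 kb of 17.7%, against 3.56%.

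**Figure D2:**
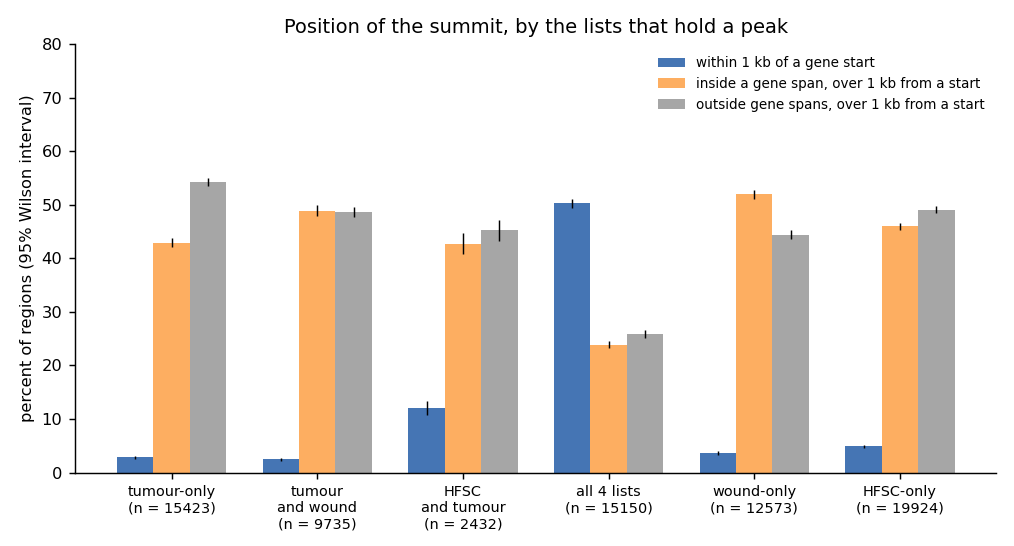
Percent of regions (bars, with 95% Wilson intervals) whose summit lay within 1 kb of a gene start, elsewhere inside a gene span or outside genes, by the lists that hold a peak. Tumour-only regions have 2.85%, 42.9% and 54.2%, while regions of all 4 lists have 50.3% at starts.

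The regions with the highest fold enrichment lay both near to and far from gene starts. The highest, with 31.4, lay 262812 bp from the nearest start, that of Mc2r, which encodes the corticotropin receptor. The next had its summit 108 bp upstream of the RefSeq start used for Ifi203 and still inside the span of that gene (chr1:173942001-173942974, pileup 168, fold enrichment 27.1). A pair followed near Sirpb1a (chr3:15452181-15452770, 26.4) and Sirpb1b (chr3:15598841-15599483, 22.1), signal regulatory receptors of myeloid cells that are close copies of each other. The others of the 10 highest lay nearest BC035044 (20.6), Car10 (20.3), Slitrk1 (19.9), Ptprq (19.5), E330014E10Rik (19.2) and Gm5861 (19.1). Only the Ifi203 and Ptprq regions lay inside the gene span. Reads of gene families with close copies can be placed on the wrong copy, and how such reads were placed was not tested.

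The share of tumour peaks that were tumour-only differed between chromosomes beyond counting error. It was lowest on chromosome 17 (20.4%, 95% Wilson interval 18.6% to 22.4%) and chromosome 4 (22.4%), and highest on chromosome 6 (35.3%, 33.7% to 36.9%), followed by chromosome 1 (32.9%), X (32.3%), 5 (32.2%) and 2 (32.0%). Regions open in all 4 lists, which the rule left out, gave the relative tumour signal of each chromosome. Their median log2 ratio of tumour to HFSC pileup, scaled to depth, ran from -0.96 on chromosome 4 to -0.44 on chromosome 6 and -0.39 on chromosome 19. Across the 20 chromosomes the tumour-only share followed this ratio (Pearson r 0.828, Spearman rho 0.809), and likewise the ratios to EpdSC (0.512 and 0.501) and wound (0.773 and 0.779), as a description over points that share the same libraries. The copy number of chromosomes in the tumour cells was not tested.

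**Figure D3:**
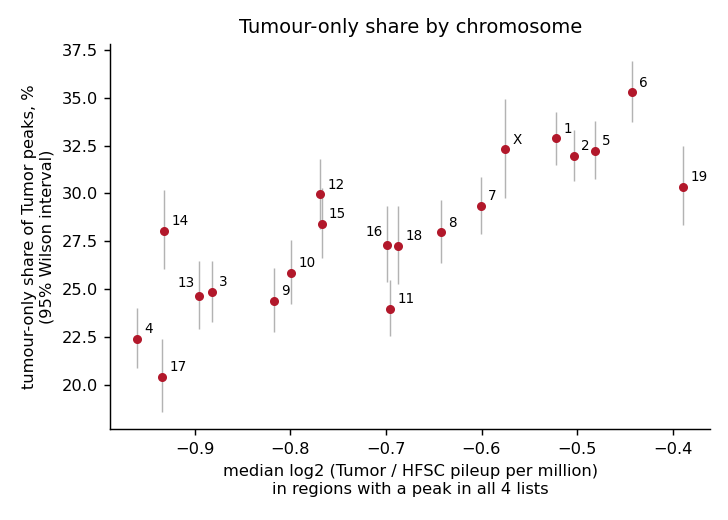
Share of tumour peaks that are tumour-only (y axis, percent, with 95% Wilson intervals) against the median log2 ratio of tumour to HFSC pileup, scaled to depth, in regions open in all 4 lists (x axis), 1 point per chromosome. Chromosomes 17 and 4 lie at the lower left with 20.4% and 22.4%, and chromosome 6 at the top with 35.3%.

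Within chromosomes the regions clustered. The 534 windows of 5 Mb with a tumour peak held a median of 28 tumour-only regions and from 0 to 94. The fullest window, 170 to 175 Mb on chromosome 2, held 94 among 240 tumour peaks (39.2%), and the window of 140 to 145 Mb on chromosome 6 held 89 among 160 (55.6%). The median log2 ratio of tumour to HFSC pileup in those windows was 0.22 and -0.02. Joining members 50 kb or less apart gave 9093 groups, of which 5695 held a single region, 1478 held 3 or more and 19 held 10 or more. The fullest group had 19 regions over 405 kb (chr19:34368151-34773076) around Ch25h, Fas, Lipa, Slc16a12 and the interferon-induced genes Ifit1, Ifit1bl1, Ifit2, Ifit3 and Ifit3b. The next had 16 each around Cd93, Gzf1, Napb and Nxt1 (chr2:148431141-148719957) and around Dera, Eps8 and Strap (chr6:137470952-137760459). Groups of 14 lay around Gm14410 and Zfp970, zinc finger genes of a family with close copies (chr2:177208567-177376870), and near Sox5 (chr6:144023942-144252885). In the Sox5 group 4 regions of other kinds lay between the 14, and in the chromosome 19 group 25 lay between the 19.

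A stretch of chromosome 7 joined regions to small RNA genes. Of 1005 miRNA hairpins placed by RefSeq (GRCm38.p6), 12 were overlapped by a tumour-only region, and 4 of those belonged to the Mir344 family between 61.7 and 62.5 Mb. The region over Mir344b was the tallest of them (hairpin chr7:61790519-61790581, pileup 104, fold enrichment 16.4), followed by those over Mir344 (30 and 6.14), Mir344c (24 and 5.80) and Mir344-2 (18 and 4.41). The mature sequences are shown because they group the hairpins by seed, the bases 2 to 8 in capitals that pair with targets. The RNA libraries did not measure miRNAs.
mmu-miR-344b-5p: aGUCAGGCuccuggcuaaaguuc
mmu-miR-344c-5p: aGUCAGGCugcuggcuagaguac
mmu-miR-344-5p: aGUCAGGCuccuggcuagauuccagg
mmu-miR-344-3p: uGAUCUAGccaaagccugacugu
mmu-miR-344c-3p: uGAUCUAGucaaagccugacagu
mmu-miR-344b-3p: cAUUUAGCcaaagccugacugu
The 5p arms share 1 seed, the 3p arms of miR-344 and miR-344c share another, and that of miR-344b differs from both. Mir344 and Mir344-2 give the same mature sequences. Of the 9 merged regions in this stretch, 6 were tumour-only.

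RNA offered a measure that the rule did not use. Each region was assigned to the nearest start of a protein-coding gene within 100 kb, which placed 10479 regions (67.9%) with 6168 genes, of which 2424 had 2 or more. The tumour arm was the HRas and the HRas TbrKO library of high integrin alpha 6, and the stem cell arm was Tbr HFSC and Tbr EpdSC, so each arm mixed 2 genotypes or lineages and its spread covers that difference. With edgeR's quasi-likelihood test over all 15471 genes tested, 26.0% were called higher in tumours and 22.4% lower at a Benjamini-Hochberg adjusted p under 0.05. Among the 14545 protein-coding genes that could be placed, the shares were 26.9% and 21.8%, and these are the background for what follows. Of the 4806 genes nearest to a tumour-only region that were tested, 1461 (30.4%) were called higher and 947 (19.7%) lower. Genes that both stem cell libraries left at 0 counts and that were called higher made up 160 of the 4806 (3.33%) and 216 of the 9739 with no such region (2.22%).

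The number and closeness of regions moved with the calls. With 1 region, 28.7% of 2868 genes were called higher and 21.4% lower, with 3 regions 34.6% of 459 and 16.1%, and with 5 or more 38.8% of 178 and 14.0%. The median log2 difference was 0.26 over all 4806 genes (0.24 with genes at 0 in both stem cell libraries set to their lower bound), 0.76 with 5 or more regions, and 0.11 over all genes placed. With a summit within 1 kb of the start, 145 of 326 genes (44.5%) were called higher and 45 (13.8%) lower. From 1 to 10 kb the shares were 34.9% and 17.3% of 1852 genes, and from 25 to 100 kb 27.6% and 20.8% of 2404, near the background. The fold enrichment of a region did not order the genes in that way, since 33.3% were called higher beside the lowest of 4 parts and 30.2% beside the highest. Beside regions whose pileup reached the 5th percentile of every other list, 31.8% of 2821 genes were called higher.

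Regions shared by tumour and wound alone gave like values, with 30.3% of 4158 nearest genes called higher and 49.5% of 202 where the summit lay within 1 kb. Genes nearest to regions open in all 4 lists were called higher in 23.9% of 8807 cases, and those nearest to HFSC-only regions in 23.2% of 5419. The difference between tumour-only and other regions was not given a test of its own. On the 10 chromosomes with the lower ratio of tumour to HFSC pileup, 28.6% of 1915 genes near a tumour-only region were called higher, against 23.6% of all 6471 placed there. The shares called lower were 21.5% and 25.2%. On the 10 with the higher ratio the values lay closer together. There 31.6% of 2891 genes near a region were called higher, against 29.6% of all 8074 placed, and 18.5% against 19.0% lower. Leaving out 1 tumour library changed the number of calls by over 1.5 times. Without the HRas library the genes near a region were called higher in 19.2% and lower in 10.1% of cases, against 17.0% and 11.1% of all placed genes under the same setting. Without the HRas TbrKO library the shares were 19.1% and 8.37%, against 15.6% and 9.83%.

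**Figure D4:**
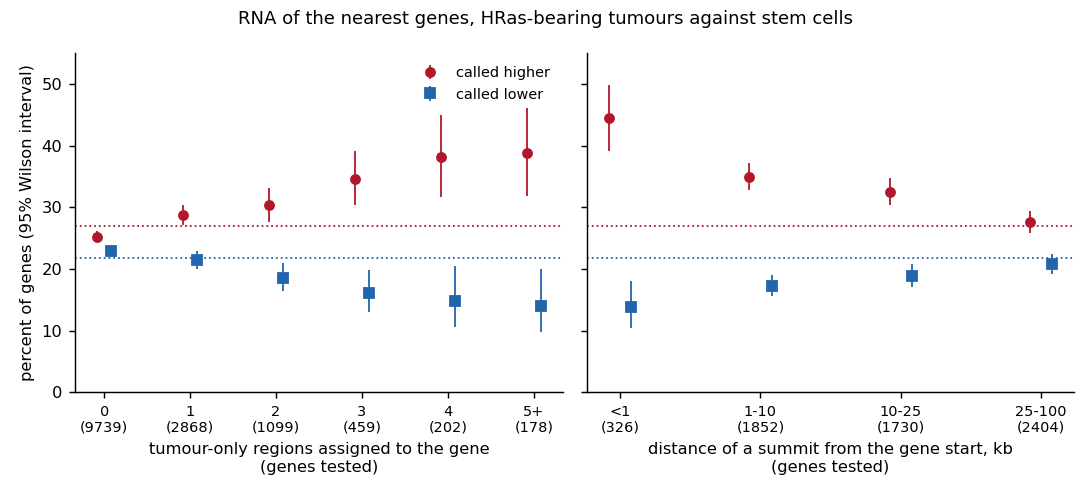
Percent of tested genes called higher (red circles) or lower (blue squares) in HRas-bearing tumours than in stem cells, with 95% Wilson intervals, by the number of tumour-only regions assigned (left) and by the distance of a summit from the start (right). Dotted lines give the shares over all placed genes, 26.9% and 21.8%, and the share called higher is 44.5% where a summit lies within 1 kb.

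The wound libraries, which share no control with the tumours, were read for the same genes. In the CL set, 30.9% of 14831 genes tested with edgeR were called higher and 32.3% lower in the wounded than in the unwounded groups, and 31.9% and 31.4% of the 13939 placed genes. Of the 4498 tested genes nearest to a tumour-only region, 1378 (30.6%) were called higher and 1524 (33.9%) lower. With 5 or more regions, 24.2% of 153 were called higher and 41.2% lower. Where a summit lay within 1 kb of the start the shares were 34.2% and 31.6% of 275, near the background. Genes near regions of tumour and wound alone were called higher in 34.6% of 3981 cases and lower in 32.0%. The share called lower was 40.4% near HFSC and tumour regions, 39.3% near HFSC-only, 32.4% near wound-only and 32.0% near regions open in all 4 lists. With 3 or more regions it was 37.1% for tumour-only, 48.1% for HFSC-only and 42.6% for all 4 lists. For wound-only it was 32.6%, for tumour and wound 31.2%, and for HFSC and tumour 54.3% of 35 genes. The shift of the shares towards higher RNA that the tumours showed with more regions was thus not seen in the wounds, where the share called lower was above the background instead. That excess of lower calls was not particular to tumour-only regions. The difference between the 2 comparisons was not tested.

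Among the genes with several tumour-only regions and the largest rise were neuronal genes. Gap43, which encodes a protein of growing axons, had 3 regions. It stood at 142 and 66.1 CPM in the HRas-bearing tumours of high integrin alpha 6, at 96.5 and 39.0 CPM in those of low, at 0.115 and 0.246 CPM in the TbrKO tumours and at 0 in stem cells. Against a floor of 3 counts per library it was at least 639-fold higher than in stem cells (edgeR, adjusted p = 0.00119), and the HRas-bearing tumours did not overlap with any other DS library. Scg2, whose start is shown above, had 5 regions and stood at 23.5 and 67.0 CPM in the high, at 8.67 and 27.0 CPM in the low and at 0 and 0.0703 CPM in the TbrKO tumours (at least 279-fold higher than in stem cells, edgeR adjusted p = 0.00278). Gad2, also shown, had 6 regions and stood at 14.8 and 14.7 CPM in the high tumours, at 8.71 and 9.48 CPM in the low and at 0 and 0.0351 CPM in TbrKO tumours (at least 90.6-fold higher than in stem cells, edgeR adjusted p = 0.00091). In these 3 genes the HRas-bearing tumours were high and the TbrKO tumours low, like the stem cells. With all 6 tumour libraries in the tumour arm, which adds the TbrKO tumours and the cells of low integrin alpha 6 together, the calls were lost, with adjusted p from 0.0667 for Gap43 to 0.0881 for Scg2. Their log2 differences stayed positive there, and no fitted value is a bound for genes at 0 in stem cells.

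Other genes of this group were also present in TbrKO tumours. Prkg2, a cGMP-dependent protein kinase, had 4 regions and stood at 532 and 467 CPM in the high, 464 and 306 CPM in the low and 51.5 and 44.0 CPM in the TbrKO tumours, against 0.263 and 0.299 CPM in stem cells. Its log2 difference was 10.76 (SE 0.38, edgeR adjusted p = 0.000272), and it was also higher in the wounded groups, by 5.52 (adjusted p = 0.00466). Crisp1, a secretory protein best known from the epididymis, rested on a single count in stem cells, and the ratio of tumours to stem cells was 1656 with a counting interval of 297 to 65410. Others of the 12 were genes of blood and vessel cells. Msr1, a scavenger receptor of macrophages, stood at 14.3 and 21.1 CPM in the high and 28.4 and 55.1 CPM in the low tumours, and S1pr1, Pear1, Lilrb4a and Lilr4b were likewise at 0 in both stem cell libraries. Lilrb4a and Lilr4b are close copies, so their counts are uncertain. They stood at 14.8 and 13.4 CPM in the HRas and 25.3 and 24.0 CPM in the HRas TbrKO tumours of high integrin alpha 6, and at 311 and 293 CPM in the HRas TbrKO cells of low integrin alpha 6.

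Leukocyte marker RNA moved in the same direction, with a summed level of 305 and 446 CPM in the high and 911 and 1618 CPM in the low HRas-bearing tumours, against 78.2 and 24.9 CPM in stem cells. Its part in those results was not tested. None of the 6 leukocyte marker genes (Ptprc, Cd74, Lyz2, Csf1r, Itgam and Cd3e) had a tumour peak at its start, and 1, Csf1r, had a tumour-only region assigned. The T cell marker Cd3e was at 0 and 0.11 CPM in the high tumours.

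**Figure D5:**
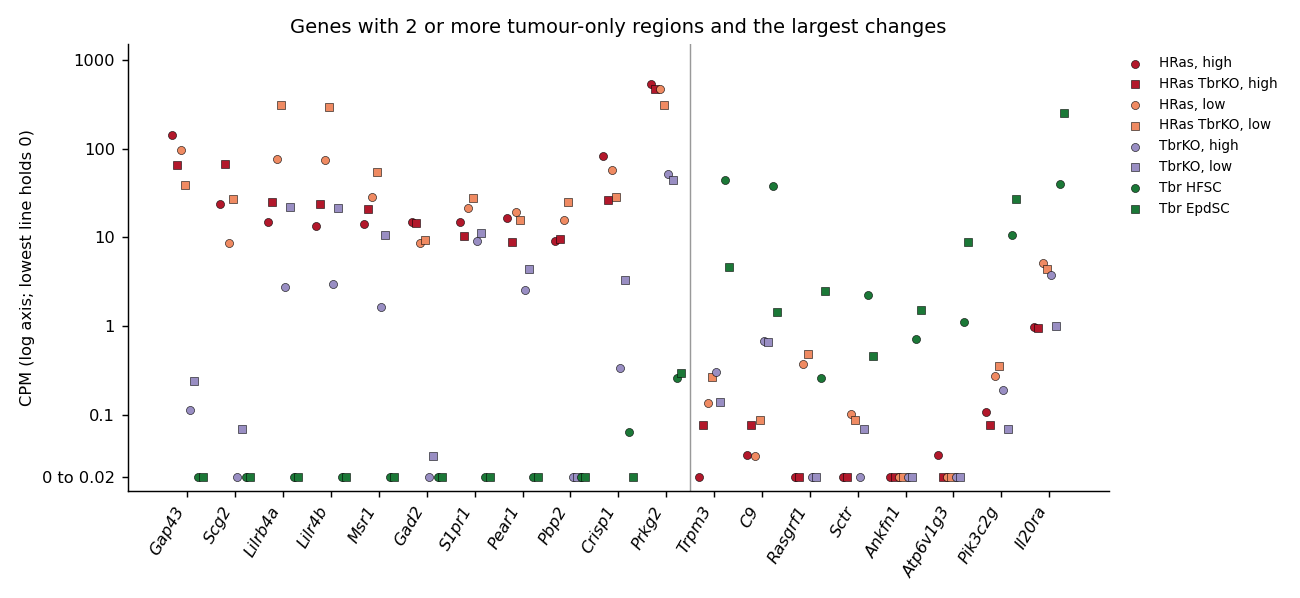
CPM (log axis, lowest line for values of 0 to 0.02) in the 8 DS libraries for 11 of the genes with the largest rise and the 8 with the largest fall among called genes with 2 or more tumour-only regions. Gap43, Scg2 and Gad2 are high in the 4 HRas-bearing libraries and at most 0.246 in the TbrKO tumours, and the stem cells (green) are at 0.

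A tumour-only region was no sign of higher RNA for every gene. Il20ra, a receptor chain for cytokines of the interleukin 20 group, had 2 regions and stood at 0.972 and 0.967 CPM in the high HRas-bearing tumours against 40.4 CPM in Tbr HFSC and 254 CPM in Tbr EpdSC, a log2 difference of -7.24 (SE 1.12, edgeR adjusted p = 0.00345). Serpinb7, whose start holds a tumour-only summit, stood at 0.864 and 2.39 CPM against 250 and 358 CPM (log2 difference -9.14, SE 0.72, edgeR adjusted p = 0.000667). Trpm3, a cation channel gene, had 2 counts in the tumours and 44.2 and 4.70 CPM in stem cells, with a ratio of stem cells to tumours of 632 and a counting interval of 175 to 5216. The others of the 8 largest falls were C9, Rasgrf1, Sctr, Ankfn1, Atp6v1g3 and Pik3c2g. Of these, C9, Rasgrf1, Sctr, Ankfn1 and Atp6v1g3 lost the call when either tumour library was left out, and Rasgrf1 also without Tbr EpdSC. Rasgrf1 further lost it with all 6 tumours (edgeR, adjusted p = 0.138). Against the BK stem cells Sctr and Atp6v1g3 lost it (edgeR, adjusted p = 0.159 and 0.0789). With DESeq2, Ankfn1 and Atp6v1g3 did (adjusted p = 0.0657 and 0.128).

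The genes with the most regions did not move together. Eps8, an actin regulator downstream of the EGF receptor, had 13 regions, and its log2 difference of 0.31 (SE 1.03, edgeR adjusted p = 0.824) did not pass. It stood at 38.4 and 19.7 CPM in the tumours and at 44.6 and 2.65 CPM in the stem cells, so the groups overlapped. Fam78b had 12 regions and stood at 59.8 and 54.0 CPM against 1.44 and 0.982 CPM (log2 difference 5.56, SE 0.34, edgeR adjusted p = 0.000448), with 2.41 and 1.55 CPM in TbrKO tumours. Zfp970, also with 12, was lower in tumours, by -2.95. Wdr72 (10 regions, 3.97), Bod1 (9 regions, 1.59) and Adgrl4 (8 regions, at least 41.2-fold higher) were higher. Angpt1 (10 regions, -1.43) and Aebp2 (9 regions, 0.13) did not pass the test, Fam135b was among the 10 with 9 regions, and Gm14410 was not tested.

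Among genes with a tumour-only region at the start, tumour suppressor and epithelial genes stood beside the neuronal ones. Cdkn2a, which encodes cell cycle inhibitors induced by oncogenic signalling, had 3 regions and stood at 89.0 and 127 CPM in the high, 94.8 and 113 CPM in the low and 17.8 and 15.3 CPM in the TbrKO tumours, against 0.0656 and 0.342 CPM in stem cells (log2 difference 8.87, SE 0.52, edgeR adjusted p = 0.000448). Krt13 stood at 986 and 1723 CPM against 4.40 and 9.82 CPM (log2 difference 7.56, SE 0.83, edgeR adjusted p = 0.00132), and in wounds its difference of -0.62 did not pass (adjusted p = 0.328). Apobr stood at 183 and 143 CPM against 0.591 and 0.0854 CPM (log2 difference 9.06, SE 0.79, edgeR adjusted p = 0.000815). Padi3, an enzyme that converts arginine residues of hair and epidermal proteins, stood at 327 and 279 CPM against 0.46 and 0 CPM, and was also higher after wounding, with a log2 difference of 10.06. Ifi203, whose region had the second highest fold enrichment, was at 9.76 and 20.2 CPM against 0 and 2.05 CPM (log2 difference 3.79, SE 1.29, edgeR adjusted p = 0.0478). As a gene with close copies its count is uncertain. These 5 genes and Serpinb7 were picked for description after their values were seen.

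Of 164 genes in 13 lists of skin, RAS and tumour biology, 97 had a tumour-only region assigned. Over all 14545 placed genes tested in tumours, 4806 had one. The shares of all placed genes called higher and lower were 26.9% and 21.8% in tumours, and 31.9% and 31.4% in wounds. Among 16 transcription factors linked to SCC, 13 had 35 regions, and of those 6 were higher in tumours and 2 lower. Sox2, a stem cell factor of embryos and carcinomas, stood at 39.4 and 36.0 CPM in the high, 19.6 and 22.4 CPM in the low and 1.87 and 2.60 CPM in the TbrKO tumours, against 0 and 0.128 CPM in stem cells. Those were 3 counts, and the ratio was 588 with a counting interval of 201 to 2851 (edgeR, adjusted p = 0.000566). Pitx1, a homeobox factor of the hindlimb and oral epithelium, had 5 regions and stood at 89.1 and 104 CPM against 0.328 and 0.171 CPM (log2 difference 8.64, SE 0.50, edgeR adjusted p = 0.000448), with 141 and 89.5 CPM in TbrKO tumours. Hmga2, a chromatin protein of embryonic cells, stood at 539 and 353 CPM against 1.90 and 0 CPM and at 0.955 and 2.18 CPM in TbrKO tumours. Trp63, the master regulator of stratified epithelium, was lower, by -2.01, at 369 and 358 CPM against 1230 and 1702 CPM. In this list the HRas-bearing tumours were apart from stem cells in each gene named, and TbrKO tumours were high in Pitx1 but not in Sox2 or Hmga2.

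Of the mesenchymal factors, Prrx1 stood at 14.7 and 7.08 CPM in the high and 67.6 and 49.6 CPM in the low HRas-bearing tumours against 0.919 and 0.47 CPM in stem cells, and Twist1 at 3.20 and 1.74 CPM, 13.7 and 12.9 CPM, and 0.131 and 0.214 CPM. Both were higher by the test (log2 differences 4.00 and 3.76), while Zeb1 with 2 regions did not pass (1.31, SE 1.09, edgeR adjusted p = 0.349). Prrx1 lost the call without the HRas library (adjusted p = 0.07115) and without Tbr EpdSC (0.0798). The summed RNA of 6 fibroblast markers ran in parallel, at 2137 and 888 CPM in the high, 11150 and 9536 CPM in the low and 36.3 and 8.15 CPM in the stem cell libraries. Its part in these results was not tested. Of those markers, 3 had 1 tumour-only region each (Col1a1, Col3a1 and Pdgfra), and 1 of the 6 starts held a tumour peak.

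Of 11 ETS factors, a family of which only some members carry MAPK signals to enhancers, 8 had 14 regions. Of the 8, 5 were higher in tumours and none lower. The 3 without a region were also higher, where 26.9% of all placed genes were. Elk3 stood at 182 and 141 CPM in the high and 71.9 and 68.6 CPM in TbrKO tumours against 6.17 and 6.62 CPM in stem cells (log2 difference 4.66, SE 0.20, edgeR adjusted p = 0.000272), and it rose after wounding by 3.99. Ehf, Elf5 and Fli1 were also called, with log2 differences of 1.73, 4.89 and 4.22, and so was Etv1, whose single count in stem cells gave a ratio of 113 with a counting interval of 20.2 to 4456. Ehf and Elf5 lost the call without the HRas TbrKO library (adjusted p = 0.133 and 0.0658) and Etv1 without the HRas library (0.0613). Without Tbr HFSC, Ehf lost it (0.0683), and without Tbr EpdSC, Elf5 and Etv1 did (0.0655 and 0.0606). The AP-1 factors themselves went otherwise. Of 10, 4 had 6 regions, and all 4 were lower in wounds, where 31.4% of all placed genes were. In tumours 2 of them, Jun and Atf3, were lower and none higher. Both calls were lost with all 6 tumours (adjusted p = 0.12 and 0.144) and against the BK stem cells (0.0984 and 0.159). Of the 6 without a region, 1 was higher and 4 were lower. Fosl1 stood at 23.8 and 23.1 CPM against 22.3 and 74.3 CPM, and its difference of -1.05 did not pass (edgeR, adjusted p = 0.192).

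RAS signalling genes were called at a share near the background. Of 9 RAS-MAPK feedback genes with 21 regions, 3 were higher and none lower. Phlda1 stood at 500 and 483 CPM against 62.6 and 58.3 CPM (log2 difference 3.02, SE 0.18, edgeR adjusted p = 0.000448), and the phosphatases Dusp4 and Dusp5 were higher by 3.87 and 2.16. In the EGF family, the ligands Areg (304 and 331 CPM against 42.2 and 25.5 CPM, log2 difference 3.23) and Tgfa (278 and 238 CPM against 23.8 and 39.3 CPM, 3.03) were higher, and the receptor Egfr with 4 regions was lower, at 87.0 and 83.2 CPM against 246 and 202 CPM (log2 difference -1.40, SE 0.17, edgeR adjusted p = 0.00174), a call that was lost with all 6 tumours (adjusted p = 0.214).

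Genes of invasion and matrix had the largest count. Of 20, 15 had 29 regions, and 11 of these were higher and 1 lower in tumours, with a median log2 difference of 3.44 against 0.11 over all placed genes. Of the 5 without a region, 3 were higher. Fscn1, an actin bundler of filopodia, stood at 494 and 389 CPM against 8.80 and 9.40 CPM (log2 difference 5.60, SE 0.41, edgeR adjusted p = 0.000573). The urokinase receptor Plaur stood at 128 and 110 CPM against 1.25 and 3.12 CPM, and the protease Mmp9 at 68.5 and 28.1 CPM against 1.97 and 0.683 CPM. After wounding, 9 of the 15 were higher and 4 lower, where 31.9% and 31.4% of all placed genes were. Fscn1 rose by 6.18 and Mmp9 by 8.65.

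In this list the matrix proteins Tnc (7 regions, 541 and 348 CPM in the high, 1339 and 826 CPM in the low tumours) and Fn1 (156 and 109 CPM, 736 and 725 CPM) were highest where the fibroblast markers were. Fn1 lost the call without the HRas library (adjusted p = 0.054), and Tnc lost it with the BK stem cells as the control arm (0.123). Nrp1, a receptor for semaphorins and VEGF on the list of adhesion genes, had 4 regions and stood at 73.5 and 55.7 CPM against 1.84 and 0.47 CPM (log2 difference 5.87, SE 0.80, edgeR adjusted p = 0.00229). Summed endothelial marker RNA, at 186 and 111 CPM in those tumours against 1.56 and 1.16 CPM, moved with it, and its part was not tested. Of the 5 endothelial markers, 2 (Cdh5 and Kdr) had tumour-only regions assigned, 4 in all.

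Secreted signals also counted mostly upward. Of 20, 12 had 28 regions and 8 of these were higher and none lower, and of the 8 without a region 6 were higher. Over all placed genes, 26.9% were called higher and 21.8% lower. Pthlh, a parathyroid hormone related peptide of SCC, had 5 regions and stood at 357 and 317 CPM against 17.7 and 3.89 CPM (log2 difference 4.98, SE 0.82, edgeR adjusted p = 0.00418), and its difference of 0.81 in wounds did not pass. Csf2 stood at 40.0 and 29.6 CPM against 0.131 and 0.214 CPM, and Cxcl5 at 43.5 and 35.4 CPM against 0 and 0.256 CPM. Il1b and Cxcl2 stood at 148 and 293 CPM and at 154 and 266 CPM, and higher in the cells of low integrin alpha 6, at 737 and 2433 CPM and at 570 and 3199 CPM, as the leukocyte markers were.

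The 3 tumour and wound keratins with a region, Krt6a, Krt18 and Krt19, were higher in tumours and in wounds. Of the 5 without a region, 4 were higher in tumours. Krt18, of simple epithelia, stood at 385 and 205 CPM against 1.12 and 0.512 CPM (log2 difference 8.55, SE 0.84, edgeR adjusted p = 0.000987), and Krt19 at 355 and 647 CPM against 3.35 and 1.54 CPM. Krt6a rose by 5.01 in tumours and by 9.47 in wounds. In glycolysis and hypoxia, 4 genes had 6 regions and 2 were higher.

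Identity and developmental signalling genes showed regions without a rise against the mixed stem cell arm. Of 9 genes of TGF-beta, BMP and Wnt signalling with 16 regions, none was higher and 4 were lower in tumours. Axin2, a feedback inhibitor of Wnt, stood at 4.14 and 4.33 CPM against 36.3 and 87.7 CPM (log2 difference -3.87, SE 0.44, edgeR adjusted p = 0.00143), and Sfrp1 was lower by -4.32, a call that was lost without either tumour library (adjusted p = 0.068 and 0.0732). The lower calls of Bmp2 and Tgfbi were lost in 6 and 3 of 9 alternative settings of the fit. Of 5 HFSC identity genes with 9 regions, 1 was lower, the bulge factor Nfatc1, at 7.06 and 6.69 CPM against 134 and 54.1 CPM (log2 difference -3.77). Of 8 EpdSC identity genes with 13 regions, 4 were lower, among them Gata3, a factor of epidermal differentiation, at 11.3 and 17.7 CPM against 163 and 266 CPM (log2 difference -3.88, SE 0.43, edgeR adjusted p = 0.00136). Tfap2a and Hes1, also called lower, lost the call in 5 and 3 of the 9 settings, and against the BK stem cells the sign of Hes1 turned. No gene with a region in these 3 lists was higher, while 26.9% of all placed genes were. Of the genes without a region, 2 of 7 in the first list were higher and 2 lower, 4 of 5 HFSC identity genes were lower, and none of 2 EpdSC identity genes was called.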

How the data were processed

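ATAC-seq was measured in 4 pooled samples and RNA in 21 libraries. Per the file headers, the authors called peaks with MACS2 2.1.1.20160309 from paired ends of pooled alignments, without a control and at a q-value of 0.05. The deposited pileup signal, fold enrichment (a ratio), -log10 p-value and -log10 q-value of a peak are the caller's own. The submitters' processing notes also name Bowtie, Picard, STAR and mm10. Details of the Tn5 shift, the gene counter, its strand setting and its annotation are not given in the sources used here. Raw read counts per gene were deposited by the authors, for 24061 symbols in 21 columns, all of which were matched to samples by name (0 left unmatched). A line of totals was kept out.

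Peaks were merged in Python 3.11.15 (numpy 2.4.6, pandas 2.3.3, scipy 1.17.1) and assigned to RefSeq starts (GRCm38.p6) of protein-coding genes with a symbol in both tables. The test of counts was that of edgeR 4.0.16 (R 4.3.3, TMM, filterByExpr, quasi-likelihood F test, Benjamini-Hochberg over all genes tested), with the 8 DS libraries fitted together for tumours and the 8 CL libraries for wounds. DESeq2 1.42.0 was an alternative. The code was tested on simulated data. CPM are scaled by TMM. Bounds use a floor of 3 counts per library, and floors and intervals cover counting error only. Nothing in the labels says that libraries came from separate animals, so p-values cover only the spread among these libraries, which can be technical.

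Named genes were the 12 largest rises and 8 largest falls among called genes with 2 or more regions, and the 10 genes with most regions. The rule also took the members of 13 lists, the 10 regions of highest fold enrichment and the 5 groups with most members (ties by density). The text gives part of all these. Some genes that this rule names are left out of the report. Genes with a region at the start were described outside that rule. The members and lists were chosen with earlier results of these data known. With no genome sequence used here, the planned windows around each summit were replaced by RefSeq gene-start windows. Coordinates count from 1.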

Additional observations from a re-analysis of the deposited data

Results flagged for a closer look

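RNA of 4 Y-linked genes appeared in libraries labelled female, as a measure that no comparison used. Its summed level was lowest at 61.5 CPM and highest at 341 CPM over the 8 DS libraries, which supplied the tumour comparison, and at most 0.385 CPM over the 8 CL libraries, which supplied the wound comparison. The 4 BK HFSC and EpdSC libraries, an alternative stem cell arm, also held 108 to 324 CPM of it, with Xist at 0 to 6.26 CPM. The tumour peak list held 17 peaks on chromosome Y, against 11 in HFSC, 2 in EpdSC and 6 in wound, and none of them entered the tumour-only regions. Xist stood at 43.0 to 1095 CPM in the 6 tumour libraries and at 1218 and 1666 CPM in the Tbr stem cell libraries. No cause was tested.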

How the results depend on the processing

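The number of tumour-only regions stayed between 13560 and 17026 under 5 settings of overlap, gap and q-value or without the EpdSC list, was 7548 with the same number of peaks from each list, and 7497 when only tumour peaks as tall as the 5th percentile of each other list were kept. The last setting, the nearest gene span, and the 10 chromosomes of lower tumour to HFSC pileup were chosen after seeing the data. The share at starts was 2.57% at a q-value of 0.001, 6.37% within 2.5 kb and 2.55% on those 10 chromosomes. The share of nearby genes called higher and lower in tumours was 33.3% and 18.4% within 25 kb, 32.9% and 17.2% with 2 or more regions, 31.8% and 18.1% for tall regions, 28.6% and 21.5% on the 10 chromosomes, 28.5% (higher) with DESeq2, 25.5% and 15.8% without a filter, 23.6% and 16.4% with 4 libraries fitted, 20.7% and 12.6% with all 6 tumours and 26.6% and 13.7% against BK stem cells. Without 1 library each, it ran from 19.1% to 29.8% and from 8.37% to 19.6%. Against all placed genes under the same setting, the share called higher was larger by 2.21 to 7.23 percentage points and the share called lower differed by -4.61 to -1.05, over 15 alternatives. The 10 chromosomes of higher tumour to HFSC pileup were not among these alternatives, and their shares lay closer to those of all genes placed there. In wounds the share was 32.6% (higher) within 25 kb, 28.4% and 36.2% with 2 or more regions, 25.8% and 26.5% with DESeq2 and 24.7% and 27.6% without a filter, and without 1 library each from 24.1% to 30.2% and from 25.9% to 37.0%. The difference from all placed genes ran from -3.54 to 0.69 points for higher and from 1.27 to 4.83 for lower. Where the count of calls moved with the samples in the fit, fewer samples or another arm was the change made, and for the other moves the cause was not tested.

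With the replicate block of the CL libraries the shares were 29.9% and 34.4%. Deviations of libraries with the same letter correlated from -0.182 to 0.0436 in the group pairs that hold an unwounded group and by 0.455 between the wounded groups, so the letters did not pair the samples across all groups. No paired analysis was possible in the tumour comparison because its groups hold 1 library each.

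Of 125 named genes tested, 83 were called and 42 of those kept the call in all 9 settings. With all 6 tumours Areg, Egfr, Jun, Atf3, Hmga2, Fam78b and Wdr72 lost the call, and against BK stem cells Zfp970, Bod1, Jun and Atf3 did. Signs turned for Angpt1 (2.84), Etv5 (-1.15) and Hes1 (0.65) against BK stem cells, and without Tbr HFSC for Id2 (2.503, -2.07 without Tbr EpdSC), Nkd1 (7.63, -1.46), Cd34 (3.71, -4.53), Sox9 (1.07, -1.68), Tcf7l1 (2.26, -1.57) and Foxc1 (1.19, -2.55). The GC content of start windows (53.5% at a q-value of 0.001) was little changed. The window of 150 bp at the summit and motif shares at summits were not run, since no genome sequence was used. Depth limits the regions: absence from the EpdSC and wound lists, with 13963471 and 11140895 fragments, does not show closed chromatin.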

Other observations

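Regions within 1 kb of a start that were found in the HFSC and tumour lists alone had 30.4% of 253 genes called higher in tumours and 18.6% lower. Those of wound-only regions had 32.4% of 321 and 18.1%, and those of HFSC-only regions 21.1% of 748 and 27.4%.

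SOX and RUNX motifs, searched in the gene-start windows on both strands, were present in 11.5% and 6.73% of the windows with a tumour-only summit, in 4.27% and 3.30% of those open in all 4 lists, and in 6.97% and 4.87% of all windows.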
